A study of Homo sapiens with 2 samples.

Results

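The genes described are 7 markers and regulators of blood progenitors and of leukemia: the surface proteins CD34, PROM1, CD33 and NCAM1, and the transcription regulators EVI1, PRDM16 and MEIS1. Every array probe whose annotation names 1 of these genes with a distance to its transcription start was taken, which gave 246 of 474411 genomic probes for 7 of 17280 annotated genes. The probes came from GATA1 ChIP-on-chip in non-treated Meg-01 cells, a human megakaryoblastic leukemia line, in which DNA pulled down with the C-20 antibody against the GATA1 C-terminus (the IP, Cy5) was hybridized together with DNA from a normal goat IgG pull-down of the same chromatin (Cy3). The 2 promoter arrays carried different probes, with CD34, PROM1, EVI1, PRDM16 and MEIS1 on chIP1 (202 probes) and CD33 and NCAM1 on chIP2 (44 probes). There was 1 hybridization per probe, without a replicate or a dye swap, so every value below is a description without a test. The number of arrays limits the precision.

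Red cells and platelets do not form properly without GATA1, which recognizes GATA sequences in DNA and, as progenitors commit, turns lineage genes on and progenitor genes off. Early blood progenitors carry CD34 and PROM1 on their surface and depend on regulators such as MEIS1, EVI1 and PRDM16, which fall as cells mature, while CD33 marks myeloid cells and NCAM1 marks natural killer cells. In acute myeloid leukemia these surface proteins serve to classify blasts, and EVI1, PRDM16 and MEIS1 are known for their overexpression.

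The value of a probe was log2 of its processed IP signal over its processed IgG signal, centered so that each array had a median of 0. A window was the mean of 3 adjacent probes whose neighbors lay within 1000 bp of the center probe, and it was called enriched at 1 or more (2-fold toward the IP) and depleted at -1 or less (2-fold toward the IgG). The scanner error given with a value was propagated from the error that the scanner software gives each log ratio and holds within 1 array only. Signals were low on both arrays, with median mean signals of 543 and 544 in the IP channel against 342 and 340 for negative control spots, and 412 and 440 in the IgG channel against 303 on each array. Over all genes, 57.1% had an enriched window and 52.9% had a depleted window, so an enriched window by itself did not set a gene apart. The highest window of a gene, its longest run and its count of enriched or depleted windows also rise with the number of its windows, for which the median over all genes was 23.

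Of the 7 genes, 5 (71.4%) had an enriched window, namely CD34, PROM1, NCAM1, EVI1 and MEIS1, against 57.1% of all genes. A depleted window was found in 4 (57.1%), namely PROM1, NCAM1, EVI1 and MEIS1, against 52.9% of all genes. Neither of these counts is far from its background. The same 4 also had an enriched window, so 4 of the 7 genes (57.1%) had both kinds, against 31.3% of all genes. Among the 229 windows of the 7 genes, 26 (11.4%) were enriched, against 7.62% of all windows, and MEIS1 alone held 14 of them. Outside MEIS1 the share was 6.59% (12 of 182 windows), below that of all windows. Depleted windows numbered 13 (5.68%), against 9.65% of all windows. The median of the highest windows was 1.19 on the log2 scale, against 1.09 for all genes, and the median of the means over all probes of a gene was 0.08, against 0.01.

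**Figure D1:**
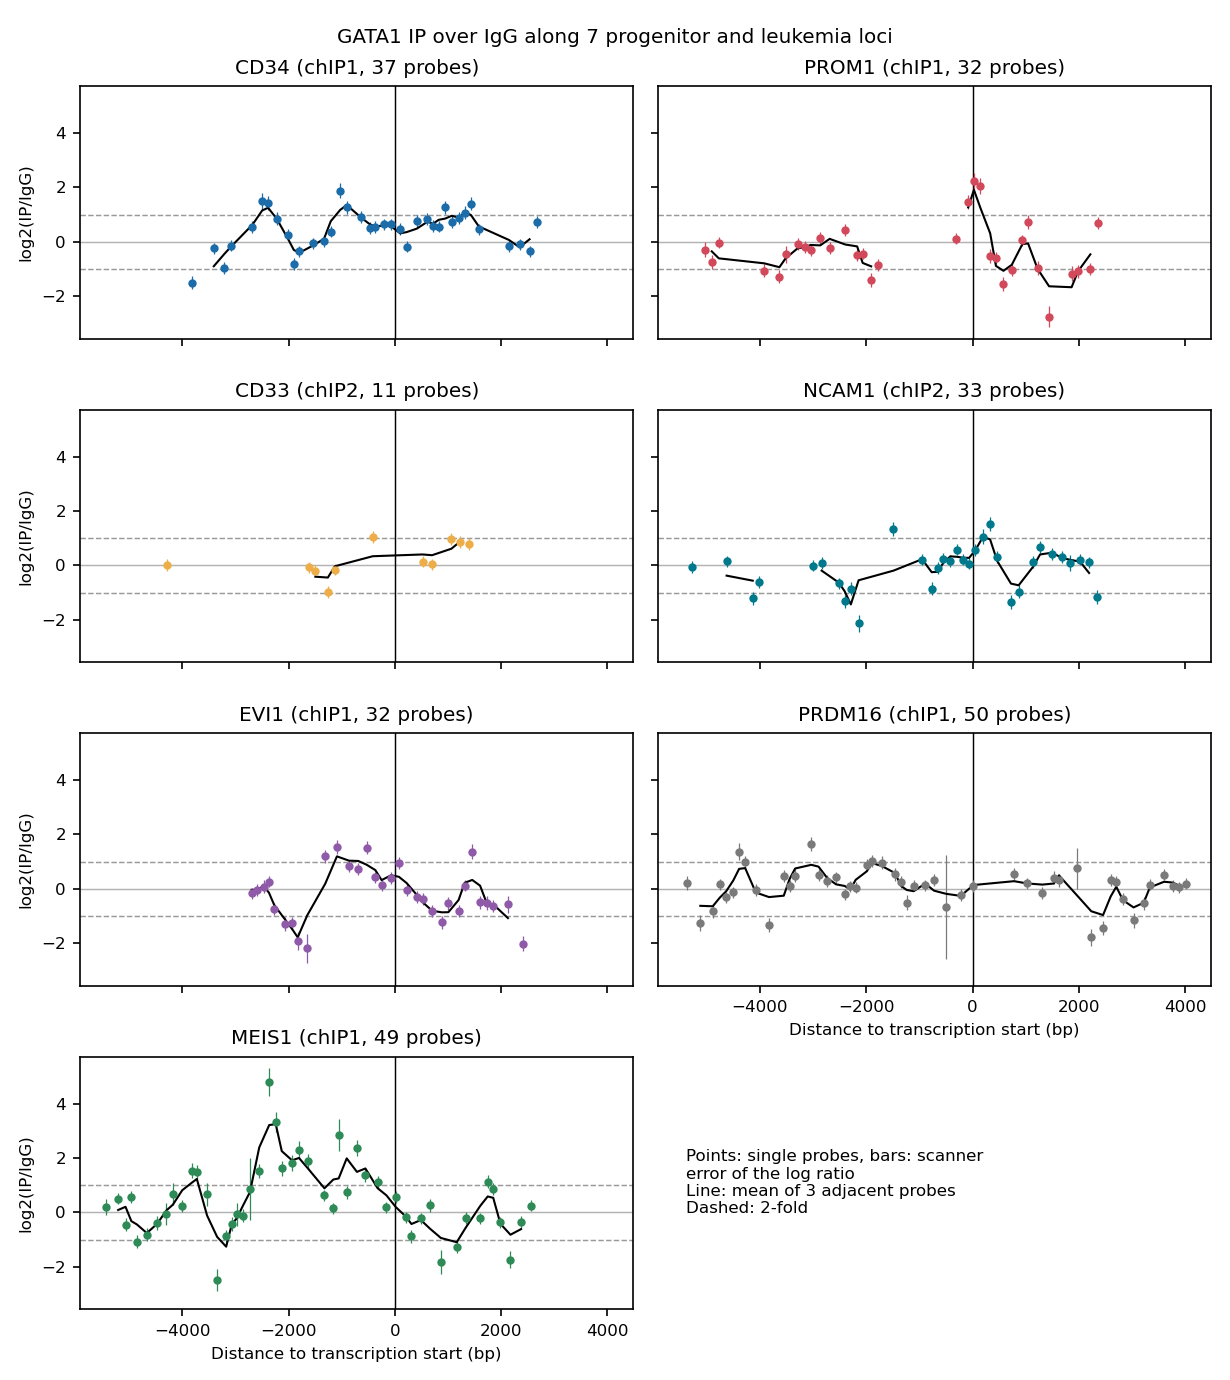
Probe log2(IP/IgG) against distance to the transcription start in bp, with a panel per gene; points are single probes with the scanner error, the black line is the mean of 3 adjacent probes, and dashed lines mark 2-fold. MEIS1 rises to 3.24 upstream of its start, PROM1 to 1.91 at its start with values below -1 inside the gene, and PRDM16 and CD33 stay under 1 in every window; 2 PROM1 probes at 107241 and 107418 bp inside the gene are not drawn.

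GATA1 is known to bind AGATAA as well as AGATAG, and likewise TGATAA as well as TGATAG. These motifs were searched on both strands in the 250 bases before each RefSeq transcription start (GRCh38.p14), and 22.3% of 35116 such promoters held at least 1. Of the 7 genes, 5 had an entry, with 10 starts in all (CD34 1, PROM1 4, CD33 1, MEIS1 1 and 3 for MECOM, the RefSeq name that EVI1 matched). Of the 10, 2 held a match, both under MECOM. The sequences of MEIS1 and CD34 are shown because these genes had the highest means over all probes, that of CD33 because it is the myeloid marker with no enriched window, and the first and the third start of MECOM because they hold the matches. Capitals mark a match, which is a description of letters and not a site. No match says only that these letters are not in this window. The first MECOM start lies far upstream of the other 2. On the arrays the start of MDS1, a gene upstream of EVI1, is likewise far off. Among the MDS1 probes upstream of EVI1, the longest run at or below -1, of 6 probes, lay 511871 to 512662 bp inside MDS1. The first MECOM start is thus placed like that of MDS1 and not like that of EVI1, and its label below gives the matched name only. The build of the array positions is not given in the sources used here, and it was otherwise not settled which RefSeq start corresponds to the start used by the arrays.
MEIS1, chr2:66434875-66435124, plus strand: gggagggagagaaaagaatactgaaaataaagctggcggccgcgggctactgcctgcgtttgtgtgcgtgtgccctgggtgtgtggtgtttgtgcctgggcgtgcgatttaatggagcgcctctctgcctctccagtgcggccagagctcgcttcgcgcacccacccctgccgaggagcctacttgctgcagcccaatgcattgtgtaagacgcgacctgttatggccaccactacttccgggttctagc
CD34, chr1:207911126-207911375, minus strand: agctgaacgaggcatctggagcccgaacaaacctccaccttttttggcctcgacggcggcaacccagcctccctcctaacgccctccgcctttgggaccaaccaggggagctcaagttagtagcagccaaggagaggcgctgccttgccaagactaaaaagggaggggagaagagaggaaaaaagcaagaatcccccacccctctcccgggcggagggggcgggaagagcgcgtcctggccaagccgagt
CD33, chr19:51224830-51225079, plus strand: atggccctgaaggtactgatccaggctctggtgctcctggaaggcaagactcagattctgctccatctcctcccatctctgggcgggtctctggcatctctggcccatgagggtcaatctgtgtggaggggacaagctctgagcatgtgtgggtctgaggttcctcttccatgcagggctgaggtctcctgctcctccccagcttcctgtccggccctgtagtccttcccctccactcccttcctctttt
EVI1 (MECOM) start 1, chr3:169663713-169663962, minus strand: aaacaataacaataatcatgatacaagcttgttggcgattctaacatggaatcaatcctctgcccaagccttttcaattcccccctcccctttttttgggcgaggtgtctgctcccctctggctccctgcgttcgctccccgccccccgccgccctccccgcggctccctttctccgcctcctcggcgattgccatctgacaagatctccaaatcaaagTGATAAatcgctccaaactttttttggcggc
EVI1 (MECOM) start 3, chr3:169146540-169146789, minus strand: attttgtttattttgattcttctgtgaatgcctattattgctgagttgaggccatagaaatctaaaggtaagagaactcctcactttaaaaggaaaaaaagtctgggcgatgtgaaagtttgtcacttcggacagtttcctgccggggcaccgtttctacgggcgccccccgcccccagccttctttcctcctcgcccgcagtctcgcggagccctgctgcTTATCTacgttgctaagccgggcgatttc
The first MECOM sequence, at the start placed like that of MDS1, holds TGATAA at position -31 from that start. The other MECOM sequence holds TTATCT, which is AGATAA on the opposite strand, at position -29. The MEIS1, CD34 and CD33 sequences hold none of the 4 words.

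CD34, a sialomucin of hematopoietic stem and progenitor cells, leaned toward the IP over most of its locus rather than at a single point. Of its 37 probes, between -3810 and 2672 bp from the start, 26 were above 0, and their mean was 0.44 ± 0.72 (SD over probes), at percentile 92.2 among the genes of chIP1. The highest window (chr1:204473690-204474136, centered at -904, in the promoter by the array's annotation) averaged 1.35 with a scanner error of 0.14. Its probes were 1.88 at -1028, 1.27 at -904 and 0.91 at -636. The highest of these had a processed IP signal of 3482 against 947 for IgG. This window stood at percentile 66.0 among the highest windows of the array, so CD34 was unremarkable by its maximum while its mean was high.

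A separate rise in CD34 lay farther upstream, where the probes at -2496 and -2384 gave 1.49 and 1.41 and the window centered at -2384 averaged 1.25. Between both rises the probes fell back to as low as -0.81 at -1900. Inside the gene, 9 probes from 500 to 2000 bp downstream of the start were all above 0, at 0.46 to 1.40 with a mean of 0.87 ± 0.33 (SD), and the window centered at 1319 averaged 1.11. Over all genes the median probe in that distance bin was 0.01. In all, 5 of 35 CD34 windows were enriched and none was depleted. At least 5 enriched windows were found in 13.3% of genes. CD34 probes were mostly bright, with a median intensity percentile of 68.0, the rank of a probe's mean log signal in both channels among the probes of its array. The rise farther upstream was dim, with the window centered at -2384 at a mean intensity percentile of 25.4. The probe at -2496 was at percentile 8.23, with processed signals of 317 for the IP and 113 for IgG. With normexp, another background correction, 2 of the 35 CD34 windows were enriched.

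PROM1 (CD133), a pentaspan membrane protein of stem cells, had a narrow rise at its start inside a locus that otherwise leaned toward IgG. The 34 probes averaged -0.42 ± 1.04 (SD), at percentile 11.3 of the array, and 9 of them were above 0. The highest window (chr4:15753662-15753941) was centered at 26 bp and averaged 1.91 with a scanner error of 0.17, at percentile 89.0. Its 3 probes were 1.46 at -82, 2.23 at 26 and 2.04 at 146. They are the only PROM1 probes at or above 1, and the next probes on either side gave 0.11 at -303 and -0.51 at 332. Runs of 3 or more such probes occurred in 22.9% of genes. The window was dim, at a mean intensity percentile of 24.2, and its center probe had processed signals of 747 for the IP and 159 for IgG.

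Downstream of its start PROM1 turned to the IgG side. The lowest window (chr4:15751822-15752425, centered at 1864, inside the gene) averaged -1.67 with a scanner error of 0.18, and 4 adjacent probes from 1440 to 2217 were at -2.75, -1.18, -1.08 and -1.01. A run at least that long on the IgG side was found in 15.2% of genes. In all, 6 PROM1 windows were depleted, of which 4 were centered from 582 to 1984 bp inside the gene and 2 lay far inside it. Those 2 also held probes annotated to another gene, and the PROM1 probes there were -1.78 at 107241 and -1.69 at 107418. At least 6 depleted windows were found in 14% of genes. PROM1 thus held 3 enriched and 6 depleted windows of 30, of which none was enriched and 1 was depleted with normexp. The lowest window was dim, at a mean intensity percentile of 17.1. Its probe at 1440 had an unprocessed IP mean signal of 357, against a median of 342 for negative control spots.

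CD33 (SIGLEC3), a sialic acid binding receptor of myeloid cells, was covered by 11 probes and 8 windows, and none of these windows was enriched or depleted. Its probes had a mean of 0.22 ± 0.62 (SD). Of the 6 upstream probes, 5 lay between -0.98 and 0.01, and the probe at -415 gave 1.04. This was the only CD33 probe within 500 bp of the start. The 5 probes inside the gene were all above 0, from 0.03 to 0.96, with a mean of 0.55 ± 0.43 (SD). The highest window (chr19:56421217-56421590, centered at 1219) averaged 0.86 with a scanner error of 0.13, from probes of 0.96, 0.84 and 0.78, and stood at percentile 34.4 of chIP2. All 8 windows lay among the brightest 25% of windows, where 6.19% of all windows were enriched. The locus had fewer windows than the median gene, and the gap from -415 to 522 left the start itself unprobed.

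NCAM1 (CD56), an adhesion molecule of natural killer cells and neurons that is also found on some leukemic blasts, had 1 enriched and 1 depleted window of 29. The enriched window (chr11:112337393-112337724, centered at 196, inside the gene) averaged 1.04 with a scanner error of 0.15, so it lay above the threshold by less than that error. Its probes climbed from 0.56 at 52 through 1.05 at 196 to 1.52 at 330, and the next probe, at 465, was back at 0.30. The window stood at percentile 48.6 of chIP2. The depleted window (chr11:112334931-112335253, centered at -2290) averaged -1.44, with its lowest probe at -2.13. A lone probe at -1488 gave 1.33 between neighbors of -2.13 and 0.21. All 8 NCAM1 probes within 500 bp of the start were above 0 (0.06 to 1.52, mean 0.55 ± 0.50, SD), while the mean over all 33 probes was -0.09 ± 0.81 (SD).

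**Figure D2:**
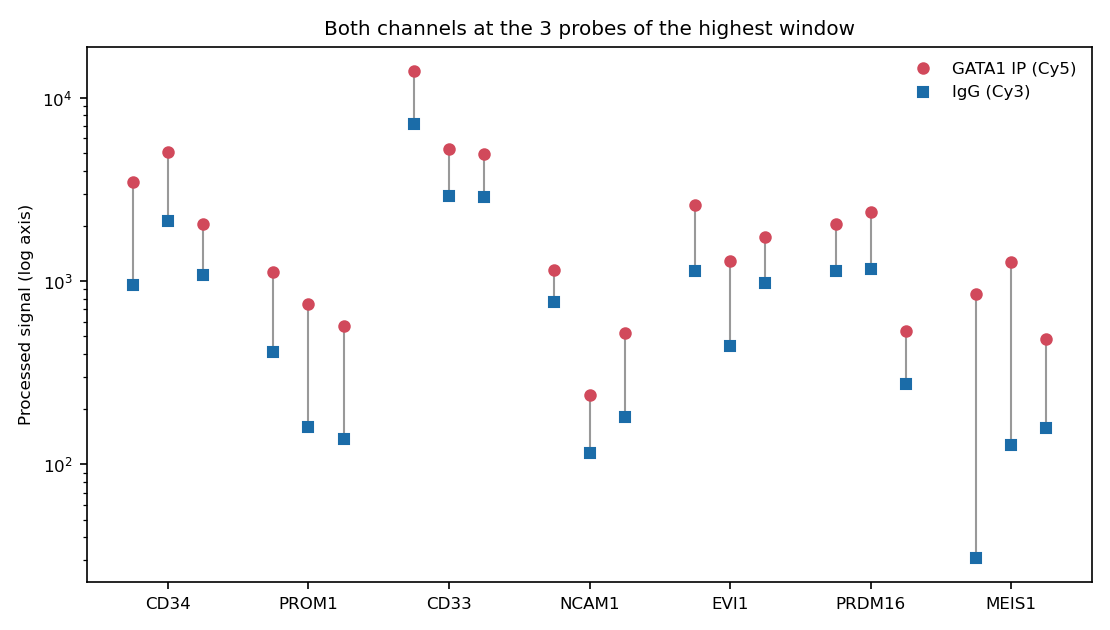
Processed signals (log axis) of the GATA1 IP (circles) and IgG (squares) at the 3 probes of each gene's highest window, in order of distance to the start. The IP lies above IgG at all 21 probes; CD33 is the brightest, and at the first MEIS1 probe the IgG signal is 30.8.

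EVI1, a zinc finger regulator that is switched on by chromosome 3 rearrangements in myeloid leukemia, changed sides within its promoter. Going toward the start, 4 adjacent probes at -2074, -1930, -1827 and -1645 gave -1.30, -1.26, -1.90 and -2.19, and the next probes at -1310 and -1089 gave 1.20 and 1.54. The lowest window (chr3:170348411-170348755, centered at -1827) averaged -1.78 with a scanner error of 0.23. The highest (chr3:170347628-170348130, centered at -1089) averaged 1.19 with a scanner error of 0.14, at percentile 55.0 of the array. Windows at -862 and -687 were enriched too, at 1.03 and 1.02, each above the threshold by less than its scanner error of 0.13. The dimmest of these probes, at -1645, had processed signals of 35.8 for the IP and 164 for IgG. Its unprocessed IP mean signal was 351, against a median of 342 for negative control spots. The lowest window had a mean intensity percentile of 20.5, against 61.9 for the highest window.

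Over its 32 windows EVI1 had 3 enriched and 4 depleted ones, and the mean of its probes was -0.20 ± 0.99 (SD). At least 3 enriched windows were found in 31.7% of genes and at least 4 depleted windows in 23.8%. None of the EVI1 windows was depleted with normexp, the lowest being -0.92, and 1 was enriched. Within 500 bp of the start its 6 probes lay between -0.29 and 0.96. Inside the gene the probes mostly lay below 0 (mean -0.39 ± 0.81, SD, n = 15), with a lone 1.37 at 1457 and the lowest, -2.02, at 2406. Upstream of the depleted stretch the last 4 EVI1 probes, from -2693 to -2369, returned to between -0.16 and 0.26. Beyond them the 17 probes annotated to MDS1, the upstream gene that can be spliced to EVI1, from -5668 to -2820 bp relative to the EVI1 start averaged -1.07 ± 1.27 (SD), and 10 of them were at or below -1. At the start of MDS1 itself 44 probes averaged 0.30 ± 1.00 (SD), with a highest window of 2.22.

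PRDM16, a PR domain regulator related to EVI1, had the most probes of the 7 genes (50) and no enriched or depleted window among 48. All its windows lay between -0.96 and 0.95. The highest (chr1:3006885-3007217, centered at -1892) averaged 0.95 with a scanner error of 0.13, from 3 even probes of 0.86, 1.02 and 0.96, at percentile 36.4 of the array. The highest single probe, 1.65 at -3034, had neighbors of 0.48 and 0.51. The mean over all probes was 0.08 ± 0.69 (SD), close to the median of all genes. The IgG signal of the probe at -496 was not well above background, so its ratio has no fold here.

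MEIS1, a homeobox partner of HOX proteins in progenitors and leukemia, had the highest window and the most enriched windows of these genes. Its highest window (chr2:66571796-66572079, centered at -2240, in the promoter by the array's annotation) averaged 3.24 with a scanner error of 0.23, at percentile 99.6 of chIP1. The 3 probes were 4.79 at -2363, 3.32 at -2240 and 1.62 at -2127. They lay in an unbroken run of 7 probes at or above 1, from -2551 to -1629, whose values ran from 1.52 to 4.79 with a mean of 2.46. Runs of 7 or more such probes were found in 81 of 17279 genes (0.469%), a measure that was chosen after the values had been seen. The other 4 probes of the run were 1.52 at -2551, 1.81 at -1934, 2.31 at -1803 and 1.87 at -1629.

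The signals behind this run were dim. The processed IP signals of its 3 highest-window probes were 848, 1267 and 482, and those of IgG were 30.8, 127 and 158. At -2363 the unprocessed IgG mean signal was 305, against a median of 303 for negative control spots, although the scanner software marked it as well above background. The highest window had a mean intensity percentile of 14.3, and 26 of the 47 MEIS1 windows lay among the dimmest 25% of windows. Of those 11.3% were enriched and 19.9% depleted over all genes, against 6.19% and 1.83% of the brightest 25%. Among the 7 genes the dimmest group held 70 of the 229 windows, and of these 70, 15 were enriched and 10 depleted. In all, the 7 genes had 26 enriched and 13 depleted windows. With normexp background correction, which pulls in ratios of dim spots, the highest MEIS1 window was 1.43 at percentile 91.4, and the longest run was 2 probes. The part of low signal in the ratios was not tested.

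Enriched MEIS1 windows numbered 14 of 47, and 45 of 17054 genes (0.264%) had at least as many. This share is not adjusted for the number of windows, which for MEIS1 was above the median of 23, and adjacent windows share probes. Joined within 1000 bp they spanned 3730 bp (chr2:66570153-66573882), with centers from -3824 to -553. The span was not even. The probe at -3343 gave -2.50, and a depleted window of -1.26 centered at -3173 lay within it. Nearer the start the probe at -713 gave 2.37 and that at -553 gave 1.36, while -1324 and -1156 gave 0.62 and 0.16. The IgG signals at -2725 and -1056 were not well above background, so no fold is given for them. Both probes still enter the windows around them and the means of the locus. With probes kept only where both channels were well above background, which drops these 2 but keeps the probe at -2363, 12 of 45 MEIS1 windows were enriched. With normexp 6 of 47 were. Downstream of the start the locus turned, with a mean of -0.28 ± 0.86 (SD, n = 15) inside the gene against 0.78 ± 1.40 (SD, n = 34) upstream.

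**Figure D3:**
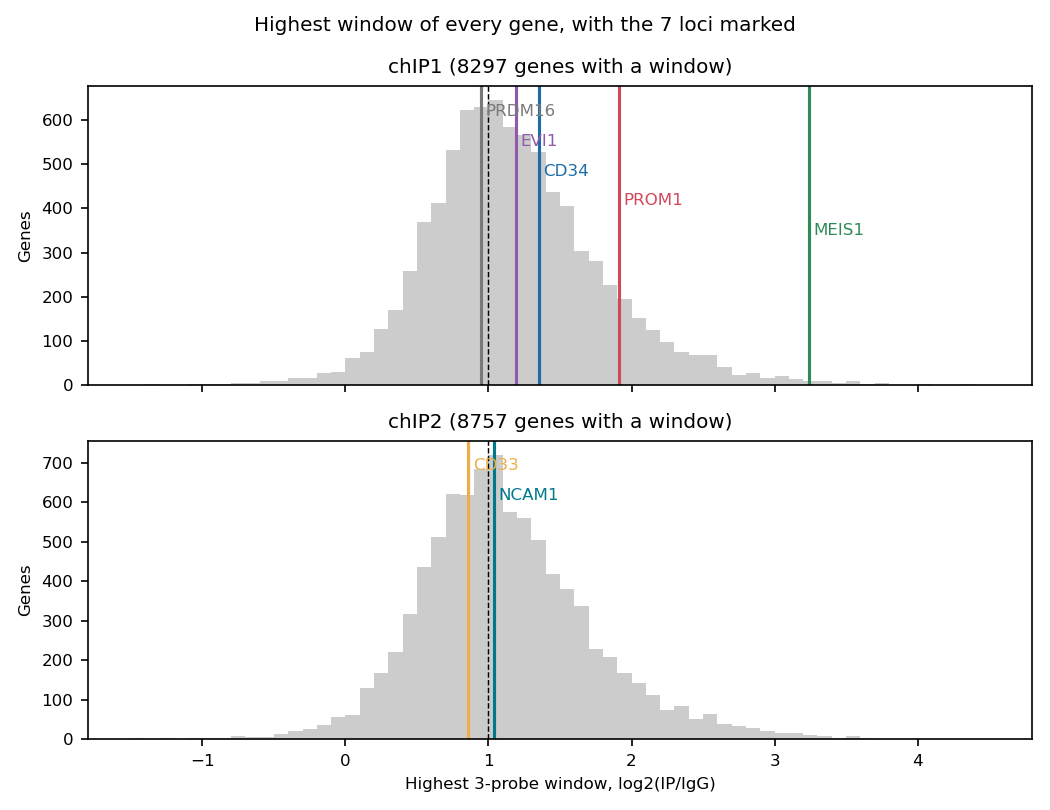
Number of genes (vertical axis) by the log2(IP/IgG) of their highest 3-probe window (horizontal axis, bins of 0.1) on each array, with colored lines at the 7 genes and a dashed line at 1. MEIS1 at 3.24 lies in the right tail of chIP1, PROM1 at 1.91 on its shoulder, and the other genes in the bulk of their array.

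In order of the highest window the genes ran MEIS1 (3.24), PROM1 (1.91), CD34 (1.35), EVI1 (1.19), NCAM1 (1.04), PRDM16 (0.95) and CD33 (0.86). The step from MEIS1 to PROM1 was 1.33 with a combined scanner error of 0.29, and that from PROM1 to CD34 was 0.56 with an error of 0.22. The step from CD34 to EVI1, also within chIP1, was 0.16 with an error of 0.20. The remaining steps, of 0.09 to 0.15, each set a gene of chIP1 against a gene of chIP2, to which the error within an array does not apply. For every neighboring pair, MEIS1 and PROM1 included, the ranges of the 3 probes overlapped. The order of the means over all probes was a different one. MEIS1 (0.45) and CD34 (0.44) came out alike, CD33 (0.22) and PRDM16 (0.08) followed, and NCAM1 (-0.09), EVI1 (-0.20) and PROM1 (-0.42) lay below 0. This order changed with the processing too. With normexp MEIS1 was at 0.16, below CD34 at 0.44 and CD33 at 0.37, and with loess CD33 was at 0.05, below PRDM16 at 0.16.

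**Figure D4:**
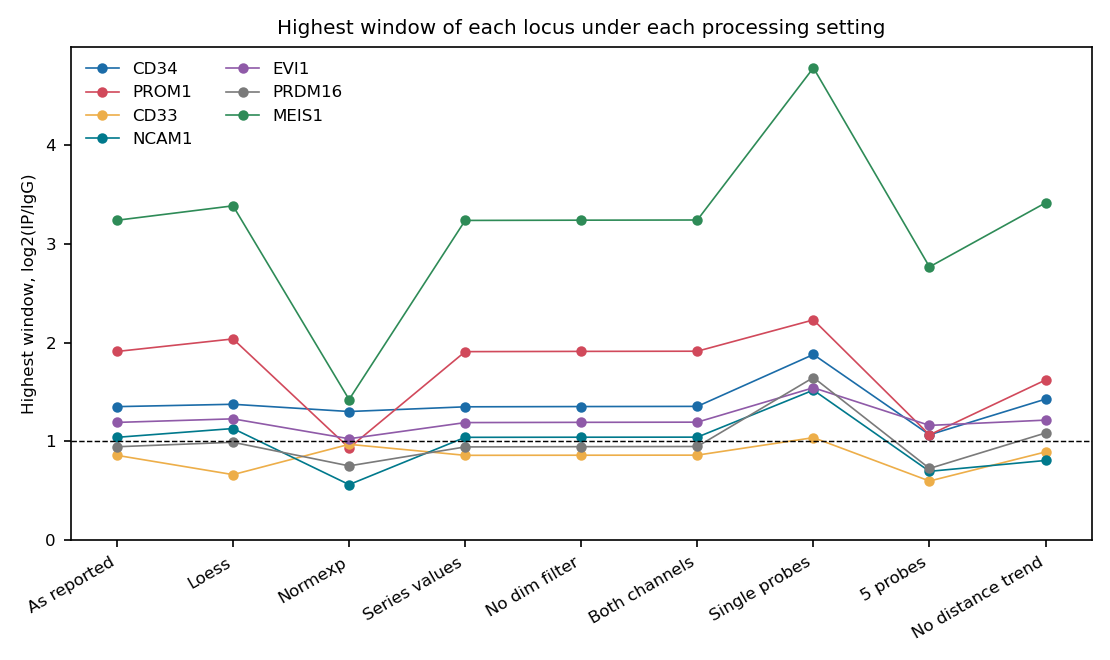
Highest window of each gene, log2(IP/IgG), under 9 processing settings, with 1 point per gene and setting and a dashed line at 1. MEIS1 is the highest throughout, from 1.43 with normexp background correction to 4.79 for single probes, while PROM1 falls from 1.91 to 0.93 with normexp.

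The order below MEIS1 depended on the background correction and on the window size. With normexp CD34 came second at 1.30, followed by EVI1 (1.03), CD33 (0.97), PROM1 (0.93), PRDM16 (0.75) and NCAM1 (0.56). The bright CD34 window moved little from 1.35, and its percentile on the array went from 66.0 to 86.5. The enriched windows of CD34 fell from 5 to 2. With windows of 5 probes EVI1 came second at 1.16, above CD34 and the narrow PROM1 rise, both at 1.07, while MEIS1 was at 2.77.

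**Figure D5:**
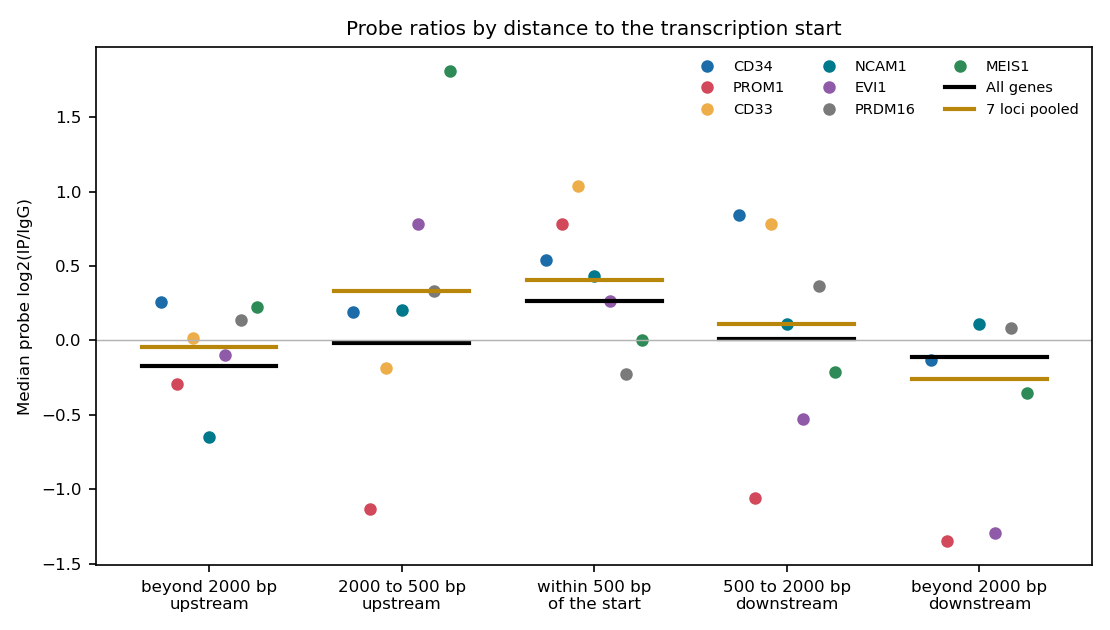
Median probe log2(IP/IgG) in 5 bins of distance to the transcription start, with a point per gene, a gold bar for the 246 pooled probes and a black bar for the probes of all genes. In the bin 2000 to 500 bp upstream MEIS1 stands highest at 1.81 and PROM1 lowest at -1.13; CD33 has no probe beyond 2000 bp downstream.

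Pooled by distance to the start, the 37 probes within 500 bp had a median of 0.40, against 0.27 for all genes, and 18.9% of them were at or above 1, against 15.1%. None of the 37 was at or below -1, against 6.42% of the probes of all genes. From 2000 to 500 bp upstream, 28.9% of 45 probes were at or above 1, against 11.5% for all genes. Of those 13 probes MEIS1 gave 6, and its 9 probes there averaged 1.56 ± 0.91 (SD). Both values include the probe at -1056, whose IgG signal was not well above background. Beyond 2000 bp downstream none of 28 probes reached 1, against 10.6% for all genes, and 32.1% were at or below -1, against 16.5%. PROM1 and PRDM16 each gave 3 of those 9 probes. Neighboring probes share DNA fragments, so the probes of a gene are not independent measurements.

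A list of 40 other genes of stem cells, blasts and the same families, chosen by role and not by value, served as context. Of these, 37 had a window and 3 symbols were not found on the arrays. In 19 of the 37 (51.4%) some window was enriched, against 57.1% of all genes, and a depleted window in 23 (62.2%), against 52.9%. The median of their highest windows was 1.03 and that of their means was -0.06. The highest window was that of HLF (2.27), a regulator of stem cell maintenance, and the lowest that of IL3RA (0.12), the interleukin-3 receptor alpha chain, which had 3 windows. None of the 37 reached the 3.24 of MEIS1.

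Highest windows of the relatives of the 7 genes are given side by side and were not compared by a test. MEIS2 and MEIS3, the paralogs of MEIS1, had highest windows of 0.88 and 0.72. PROM2 reached 1.42, NCAM2 0.97, and the CD34 relatives PODXL and PODXL2 0.79 and 1.97. Among the relatives of CD33, SIGLEC7 reached 1.10, SIGLEC5 0.46 and SIGLEC9 0.22. Of the PR domain genes, PRDM14 reached 2.15 and PRDM1 1.28, both above PRDM16. No gene with a like pattern can be named, since there was 1 contrast only.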

How the data were processed

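Both arrays came from 1 ChIP of non-treated Meg-01 cells. The authors deposited the scanner output of Agilent Feature Extraction 9.5.3.1. Per the file headers, its processed intensity values were surface-subtracted, detrended and linearly dye-normalized, and weak signals were replaced by surrogates. The deposited log10 ratio is Cy5 over Cy3, and its deposited error, a score here, comes from the scanner's error model. The deposited series values hold the same log10 ratios. The software that the study used to call peaks was not used here.

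Ratios were taken to log2 with Python 3.11.15, pandas 2.3.3 and numpy 2.4.6 from the deposited intensities, and log2 values were centered on each array's median. Control spots, non-uniformity outliers and probes that neither channel lifted well above background were dropped, which kept 237004 of 237210 probes on chIP1, 236864 of 237201 on chIP2 and all 246 described. Alternatives were loess (span 0.3) and normexp (offset 50) in limma 3.58.1 with R 4.3.3, the series values, other filters, single probes, 5-probe windows, 1.5-fold and 3-fold thresholds, and a ratio freed of its trend with distance to the start. The code of the window calls was run on simulated probes with planted shifts far above the simulated noise. That noise was far below the SD of 0.97 of the kept probes on each array. The run checks the code only and says nothing on the calls in these data.

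The 7 genes and all lists were chosen with earlier results of these data known. Named genes are the 7, the context genes with the highest and lowest window, and relatives of the 7, except 1 that is not reported here. No probe of the 7 was also annotated to another gene.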

Additional observations from a re-analysis of the deposited data

How the results depend on the processing

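No value changed sign under any alternative. Of 56 recomputed highest windows, 49 kept their side of the 2-fold threshold. Normexp lowered NCAM1 to 0.56 and PROM1 to 0.93, 5-probe windows lowered NCAM1 to 0.70, and removing the distance trend lowered it to 0.81. Single probes raised CD33 to 1.04 and PRDM16 to 1.65, and removing the distance trend raised PRDM16 to 1.09. Of 42 recomputed means over all probes, 40 moved by less than their standard error over probes. The others were MEIS1 at 0.16 with normexp and PRDM16 at 0.19 with the distance trend removed, which also brought the median within 500 bp of the start to 0.12.

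Instead of 5, the genes with an enriched window numbered 3 with normexp (33.1% of all genes) and 2 at 3-fold (20.6%). Instead of 4, those with a depleted window numbered 1 with normexp (23.9%), 2 with 5-probe windows (33.5%) and 2 at 3-fold (22.3%). The share of enriched windows, 11.4%, became 3.93% with normexp (3.25% of all windows), 24.9% at 1.5-fold (19.3%) and 4.37% at 3-fold (1.79%). The share of depleted windows, 5.68%, became 0.437% with normexp (2.5%), 13.4% for single probes (14.4%), 2.83% with 5-probe windows (6.97%), 18.8% at 1.5-fold (21%) and 1.31% at 3-fold (2.74%). The context genes with an enriched window, 19, became 11 with normexp, 34 for single probes, 32 at 1.5-fold and 9 at 3-fold. The longest MEIS1 run, 7 probes, became 2 with normexp and 8 with loess or without the distance trend, and that of PROM1, 3 probes, became 1 with normexp, checks that were chosen after seeing the data. Genes with a depleted window numbered 6 for single probes (81.1% of all genes) and 6 at 1.5-fold (78.4%), a move of 1.5 times. Every other count of genes and every other run length under these alternatives moved by less than that. Some window counts of single genes moved by more. Depleted windows with normexp went from 4 to none in EVI1 and from 6 to 1 in PROM1. Enriched windows of PROM1 went from 3 to none with normexp. Those of PRDM16 went from none to 3 without the distance trend. The cause of these changes was not tested.

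No paired analysis was possible because the arrays held different probes and no test was run. With 1 hybridization per probe, dye and IP cannot be told apart, and spots near the negative controls limit every ratio of a dim probe.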
